A study of Mus musculus with 12 samples.

Results

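The regions described here are 752 promoter regions of mouse spermatogonia-enriched cells at which a peak of H3K36ac was called in exactly 2 of 3 *Sirt7*-/- samples and in none of 3 WT samples. They were found by merging overlapping or touching peaks of all 6 samples into 4467 regions and keeping those with any part within 3000 bp of a RefSeq gene start of GRCm38.p6, the assembly of mm10. The members made up 16.8% of all merged regions (exact 95% confidence interval 15.75 to 17.96, counting error only). They were chosen by the peak calls themselves, so the calls, their strength and their widths are given as a description, with no test. Another 71 regions had the same calls but lay farther than 3000 bp from every gene start.

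H3K36ac is the acetylation of lysine 36 on histone H3, a mark found chiefly at the promoters of active genes. SIRT7 is a sirtuin, an NAD-dependent deacetylase, and H3K36 is among the residues it acts on. Spermatogonia are the mitotic germ cells at the base of the seminiferous tubule, and the undifferentiated ones among them include the stem cells of the male germ line. The same lysine can be methylated in place of acetylated, and a single residue cannot carry both marks.

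The samples came from 129S1/Sv mice at postnatal day 5 (Pnd 5), WT or null for *Sirt7* (*Sirt7*-/-, labelled S7KO), and 50000 cells entered each immunoprecipitation. Each genotype had replicates 2, 3 and 4, with 1 mouse per replicate, and each sample was paired with its own input. The cells were enriched by plating away somatic cells and were not sorted, so the fraction of other testis cells per sample is not known here. Broad peaks were called in each sample against its input, with no spike-in factor applied. The *Sirt7*-/- lists held 2045 to 2840 peaks and the WT lists held 906, 64 and 294, the list of WT replicate 3 standing apart as the shortest. The lists hold no read counts. Clean reads per library are stated by the study, but the reads left after duplicate removal and filtering, which set the precision of a call, are not. The absence of a call is not the absence of the mark. *Sirt7* itself had no promoter peak in any list, which checks no label because the peaks measure a histone mark. Of 8 spermatogonial marker genes, 5 had a promoter peak in at least 1 *Sirt7*-/- list. These were *Zbtb16*, *Gfra1* and *Uchl1* in replicate 2 alone, *Dazl* in replicate 4 alone and *Foxo1* in replicates 2 and 3, at separate regions. Of 19 markers of Sertoli, Leydig, peritubular myoid and endothelial cells and macrophages, 2 had one (*Sox9* in replicate 3 and *Dhh* in replicate 4). The share of all genes with such a peak is not set beside these counts, so they give no measure of cell identity. No marker of either kind had a WT peak and none had a member region.

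To show what kind of promoter these regions lie at, the 150 bases before a start of the RefSeq promoter table are printed for 9 members. They are the 3 best by mean rank in each pair of calling lists. Only protein-coding genes with a sequence at or close to the gene start were considered. At *Arpc2*, *Atxn1l* and *Itfg2* the promoter table's start differs from the gene start used by the rule. That gene start (74236490, 109737794 and 128424927) lies inside the printed bases. The sequences are from RefSeq on GRCm38.p6, 5′ to 3′ on the gene's strand. Capitals mark a match to 1 of 9 searched motifs, and the text below gives their letters. *Klf11* (chr12:24651221-24651370, plus strand), *Pes1* (chr11:3963825-3963974, plus) and *Lsm8* (chr6:18848485-18848634, plus) were called in replicates 2 and 3. *Klhdc8b* (chr9:108461582-108461731, minus), *Gorab* (chr1:163403670-163403819, minus) and *Arpc2* (chr1:74236367-74236516, plus) were called in replicates 2 and 4. *Atxn1l* (chr8:109737781-109737930, minus), *Itfg2* (chr6:128424911-128425060, minus) and *Eloa* (chr4:136021650-136021799, minus) were called in replicates 3 and 4.
Klf11: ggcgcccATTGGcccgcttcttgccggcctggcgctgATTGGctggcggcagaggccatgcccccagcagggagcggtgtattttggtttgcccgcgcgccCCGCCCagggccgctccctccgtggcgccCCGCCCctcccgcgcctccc
Pes1: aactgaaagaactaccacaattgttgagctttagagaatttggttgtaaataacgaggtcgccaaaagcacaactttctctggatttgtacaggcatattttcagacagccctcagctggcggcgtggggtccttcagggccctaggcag
Lsm8: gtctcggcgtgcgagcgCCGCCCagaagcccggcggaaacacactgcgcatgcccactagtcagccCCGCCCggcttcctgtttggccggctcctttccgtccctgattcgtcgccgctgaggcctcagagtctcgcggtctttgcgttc
Klhdc8b: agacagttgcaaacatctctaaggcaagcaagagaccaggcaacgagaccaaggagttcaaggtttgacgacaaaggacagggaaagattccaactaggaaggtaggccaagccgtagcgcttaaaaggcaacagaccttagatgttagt
Gorab: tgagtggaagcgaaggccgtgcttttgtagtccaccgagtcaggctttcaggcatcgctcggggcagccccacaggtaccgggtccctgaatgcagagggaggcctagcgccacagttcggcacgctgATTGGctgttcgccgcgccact
Arpc2: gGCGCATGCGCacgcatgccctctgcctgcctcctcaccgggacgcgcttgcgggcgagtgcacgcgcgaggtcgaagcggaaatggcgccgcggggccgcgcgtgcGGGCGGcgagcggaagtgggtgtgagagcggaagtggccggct
Atxn1l: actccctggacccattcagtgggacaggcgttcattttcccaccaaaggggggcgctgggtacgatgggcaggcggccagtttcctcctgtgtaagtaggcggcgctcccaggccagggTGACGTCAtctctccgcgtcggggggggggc
Itfg2: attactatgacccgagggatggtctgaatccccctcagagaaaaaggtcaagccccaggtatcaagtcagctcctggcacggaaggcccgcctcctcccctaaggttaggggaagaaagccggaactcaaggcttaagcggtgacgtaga
Eloa: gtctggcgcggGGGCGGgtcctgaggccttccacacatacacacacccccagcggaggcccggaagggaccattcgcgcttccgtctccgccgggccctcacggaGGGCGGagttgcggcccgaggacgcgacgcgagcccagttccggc

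These 9 windows differed widely in base composition and did not share a motif. Over the full window of 300 bases, from 250 before to 50 after the promoter table's start, GC content ran from 46.0% at *Pes1* to 77.7% at *Klf11*, and the observed over expected CpG ratio from 0.363 at *Klhdc8b* to 1.192 at *Arpc2*. *Klf11*, a Krüppel-like transcription factor gene, held 4 matches in the printed stretch: CCAAT boxes (as ATTGG) at -143 and -113 and GC boxes at -49 and -20, counted from the start to the first base of the match. *Atxn1l*, which encodes a relative of the polyglutamine protein ataxin-1, held a cAMP response element at -31 from the promoter table's start. *Klhdc8b*, *Pes1* and *Itfg2* held no match in these letters. The peaks themselves often lay past the printed bases: the merged region covered 0 of the 150 bases at *Arpc2*, *Atxn1l*, *Eloa* and *Klhdc8b*, 12 at *Klf11*, 20 at *Lsm8*, 56 at *Itfg2*, 143 at *Pes1* and 150 at *Gorab*.

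The 752 regions were not spread evenly over the pairs of lists. Replicates 2 and 4 shared 355 of them (47.2%, exact 95% confidence interval 43.6 to 50.8), replicates 2 and 3 shared 225 (29.9%, 26.7 to 33.3), and replicates 3 and 4 shared 172 (22.9%, 19.9 to 26.0). The list most often without the call, that of replicate 3, was also the shortest of the *Sirt7*-/- lists and came from the library with the fewest clean reads of that genotype. The part of depth in the missing calls was not tested. When every *Sirt7*-/- list was shortened to its best 2045 peaks, 611 regions met the rule and 32.9% of them lacked a call in replicate 3. The share of each list's own peaks that fell in a member was similar, at 580 of 2840 peaks in replicate 2 (20.4%), 397 of 2045 in replicate 3 (19.4%) and 527 of 2591 in replicate 4 (20.3%).

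Within a region, the peaks of the 2 calling samples overlap or touch by the merging rule, so their overlap is a description and no sign of agreement. The overlap was a median of 94.5% of the smaller peak, 301 members had 1 peak lying wholly inside the other, and in 677 (90.0%) the overlap reached at least 50% of the smaller peak. The midpoints of both peaks were a median of 114 bp apart for replicates 2 and 3 and 115 bp for replicates 2 and 4. Median peak widths at the members were 465, 377 and 417 bp in replicates 2, 3 and 4. The merged regions had a median width of 637 bp, with quartiles of 437 and 932 bp and a range from 236 bp at *Pes1*, a ribosome assembly gene, to 2843 bp at *Igf1r*, the receptor of insulin-like growth factor 1. *Nab2*, a corepressor of early growth response factors (2487 bp), and *Ormdl3*, a regulator of sphingolipid synthesis (2405 bp), were the next widest. Together the members covered 549 kb.

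The strength of the calls was middling. The authors' -log10 q at the members had a median of 2.01 in replicate 2, 2.39 in replicate 3 and 2.24 in replicate 4. In promoter regions called in every *Sirt7*-/- list and no WT list, of which there were 445, it was 2.47, 2.58 and 2.59, and in the 1698 called in 1 *Sirt7*-/- list alone 1.74, 2.16 and 1.99. The medians of the members thus lay between those of these 2 classes in all 3 lists. Fold over input followed the same order in 3 of 3 (members 3.997, 4.593 and 4.031). Promoter regions called in both genotypes were stronger still, with a median -log10 q of 2.87, 3.16 and 2.85. Averaged over its 2 calling lists, the percentile rank by q of a member had a median of 54.9, where 0 is the strongest peak of a list, and ranged from 0.727 to 97.4.

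The strength of a member in one list was at most weakly tied to its strength in the other. Across members, the Spearman correlation of -log10 q between the 2 calling lists was 0.137 for replicates 2 and 3 (225 regions), 0.0848 for replicates 2 and 4 (355) and -0.0425 for replicates 3 and 4 (172). It was 0.219 to 0.262 across the 445 regions called in every *Sirt7*-/- list. These are descriptions over regions of the same lists, which the calls themselves selected. Only 5 members were in the best 10% of both calling lists, 67 were in the best 10% of at least 1, and 32 were in the best 10% of one and below the median rank of the other. *Rabep1*, a Rab5 effector gene of endosome fusion, was the strongest member of replicate 2 with a -log10 q of 7.11, against 1.91 in replicate 3. *Cttn*, which encodes the actin-binding protein cortactin, had 8.42 in replicate 4 against 1.48 in replicate 2. These 2 genes were chosen after their values were seen.

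**Figure D1:**
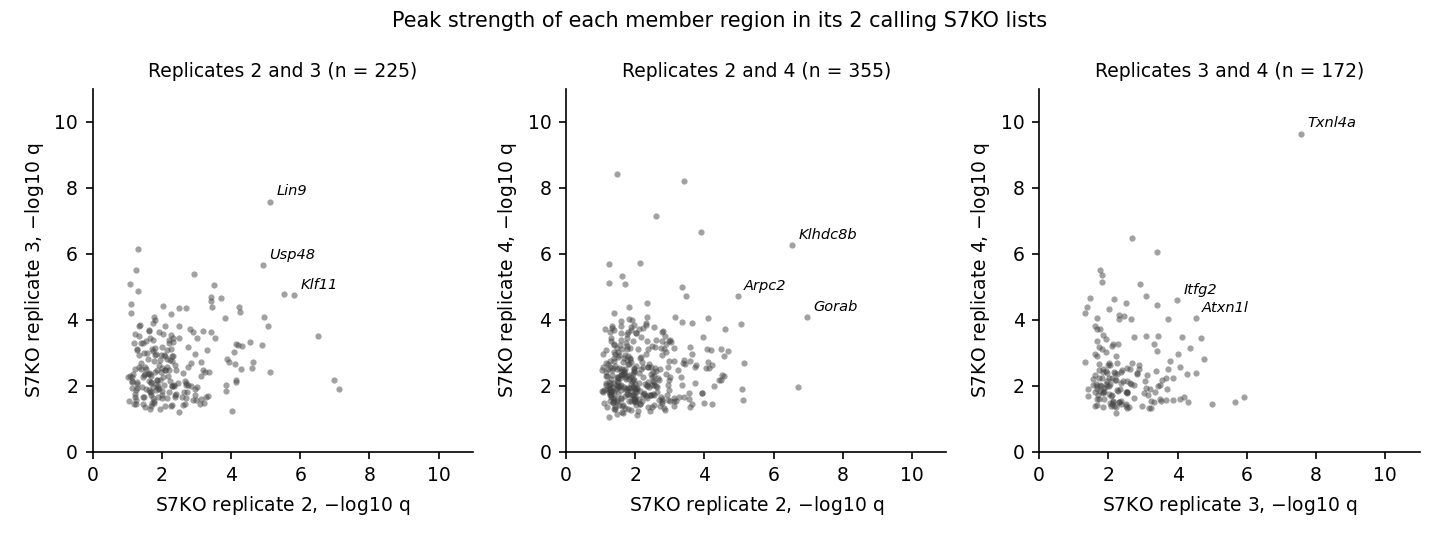
Each point is 1 member region, plotted by the authors' -log10 q in its 2 calling *Sirt7*-/- lists, 1 panel for each pair of replicates, with the 3 best-ranked members of each pair named. Most points lie below 4 on both axes, and *Txnl4a* stands alone with 7.58 in replicate 3 and 9.65 in replicate 4.

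The best-ranked member of all was at *Txnl4a*, which encodes the U5 small nuclear ribonucleoprotein subunit DIM1. It had a -log10 q of 7.58 and a fold of 7.53 in replicate 3 and 9.65 and 6.95 in replicate 4, ranking 25th of 2045 and 6th of 2591 peaks. The nearest peak of replicate 2 was 55541 bp away. Among members called in replicates 3 and 4, *Atxn1l* followed with 4.53 in replicate 3 and 4.05 in replicate 4. *Itfg2*, part of the KICSTOR complex that restrains mTORC1, had 3.99 and 4.60 in the same lists. *Kmt2d*, an H3K4 methyltransferase gene, had 4.66 and 3.45, with the region centred 2114 bp inside the gene. The fifth region of this pair, with 3.42 and 6.07, was nearest to the start of the pseudogene *Gm29257*. All 5 lacked a call in replicate 2, the longest list.

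Among members called in replicates 2 and 3, the best-ranked was at *Lin9*, a subunit of the DREAM and MuvB complexes that control cell cycle genes. Its -log10 q was 5.13 in replicate 2 and 7.58 in replicate 3. Here the call in replicate 4 was near: its closest peak began 192 bp from the region's edge, so that *Lin9* had a peak near the same promoter in all 3 lists. *Usp48*, a deubiquitinase gene, had 4.92 and 5.65, and *Klf11* 5.83 and 4.76. *Rpf1*, a ribosome biogenesis factor gene, had 5.54 and 4.78. *Epc2*, a homologue of the Enhancer of Polycomb subunit of NuA4-type acetyltransferases, had 4.96 and 4.09.

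Among members called in replicates 2 and 4, *Klhdc8b*, a kelch-repeat gene, led with 6.55 in replicate 2 and 6.27 in replicate 4. *Gorab*, a golgin gene, had 6.97 and 4.09. *Arpc2*, a subunit of the Arp2/3 actin nucleator, had 4.96 and 4.72. *Chmp3*, of the ESCRT-III membrane scission machinery, had 3.90 and 6.66. *Zfat*, a zinc finger gene, had 5.06 and 3.87. Replicate 3 had no peak within 49247 bp of any of these 5 regions.

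In most members the list without the call had no peak near. The rule bars that list from the region and the lists are short, so this is a description. No distance for other classes of regions is set beside it. The closest peak of the third *Sirt7*-/- list lay a median of 168250 bp away (quartiles 62538 and 380057 bp). It was within 1000 bp in 11 members (1.46%) and within 10000 bp in 30 (3.99%). The 11 were *Lin9* (192 bp), *Rragd* (17 bp), *1700123O20Rik* (35 bp), *Pcgf3* (70 bp), *Gtf2a1* with both of its regions (401 and 488 bp), *Klf10* (811 bp), *Hspa8* (836 bp), *Ppp3ca* and *Fosl2* (844 bp each) and *Rbm15* (977 bp). *Gtf2a1*, the large subunit of general transcription factor IIA, showed how peaks of different samples tiled 1 promoter. Its region over the start was called in replicates 2 and 4 and its region 552 bp from the start in replicates 2 and 3. *Tgif1*, a homeobox corepressor gene, likewise had 2 member regions, called in replicates 3 and 4 and in replicates 2 and 4.

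WT peaks, from shorter lists and excluded at the members by the rule, were seldom near. The nearest peak of any WT list lay a median of 389532 bp from a member, within 1000 bp in 1 member and within 10000 bp in 5. The closest was 129 bp from the region at *Wwc2*, a Hippo pathway regulator, and belonged to WT replicate 4. *Arid1a*, a subunit of the BAF chromatin remodeller, had a WT peak 2295 bp away, and these were the 2 members with a gene start that also lay within 3000 bp of a WT-called region. The rule's absence from WT rested mostly on 1 list: of the 983 promoter regions with exactly 2 *Sirt7*-/- calls, 231 had a WT call, 204 of them in WT replicate 2, 7 in WT replicate 3 and 50 in WT replicate 4. Without WT replicate 2, 928 regions met the rule.

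**Figure D2:**
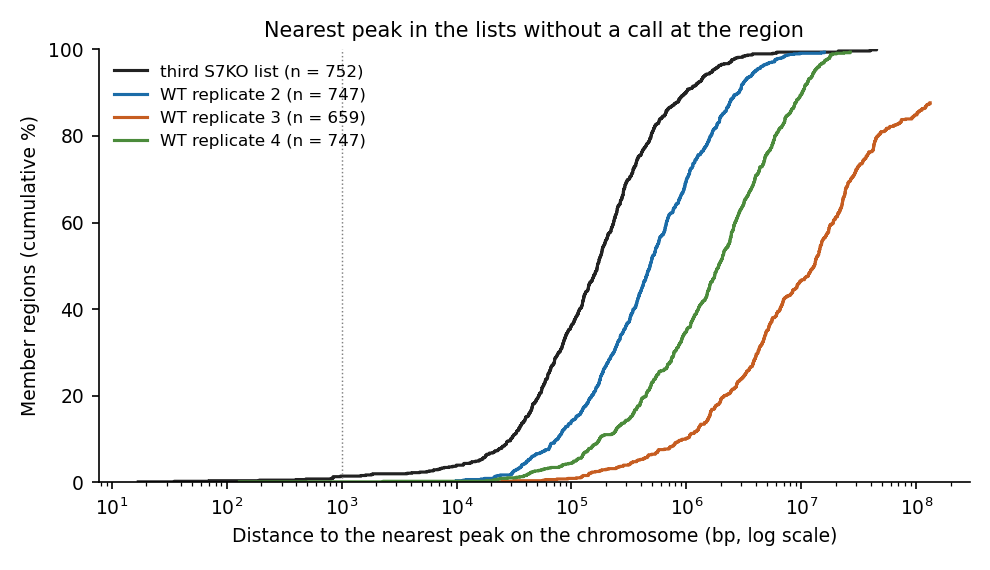
Cumulative percentage of member regions against the distance to the nearest peak on the same chromosome, on a log scale, for the third *Sirt7*-/- list and each WT list. n is the number of members on a chromosome where that list has a peak, and the dotted line marks 1000 bp, left of which lie 11 members for the third *Sirt7*-/- list and 1 for the WT lists.

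The members sat just inside genes. Of the 752, 624 (83.0%) were centred downstream of the gene start that names them, 295 (39.2%) covered that start, and the median midpoint was 305 bp downstream (quartiles 105 and 506 bp). The share centred downstream was 80.7% in regions called in every *Sirt7*-/- list and no WT list and 84.3% in the 877 promoter regions called in both genotypes. The share that covered the start was 52.6% and 49.6% in these classes and 22.2% in regions of 1 *Sirt7*-/- list alone. Median widths followed the same order as this share in the classes without WT calls (937, 637 and 333 bp), and width goes with the number of lists merged.

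Peak position was then compared with that of the regions called in every *Sirt7*-/- list and no WT list. In replicates 2, 3 and 4 the median midpoint of a member's peak was 299, 304 and 323 bp downstream of the start, against 305, 308 and 325 bp. The difference in this signed position was -3.92 ± 2.16 bp (SD, n = 3 libraries), members being lower in 3 of 3 libraries (exact sign-flip permutation test, two-sided, p = 0.25, the smallest p that 3 libraries allow). Upstream peaks count as negative, so a lower value is not a shorter distance to the start. With the mean in place of the median the difference was -0.268 bp, members being lower in 1 of 3 libraries. With only regions that have a single gene start it was -0.0833 bp, lower in 2 of 3. Each member enters 2 of the libraries, which are therefore not independent, and with 3 libraries the test could not have passed a threshold. The rule also used peak coordinates, for the merging and for the window of 3000 bp, so position is not free of it. The test therefore decides nothing about a difference in position.

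**Figure D3:**
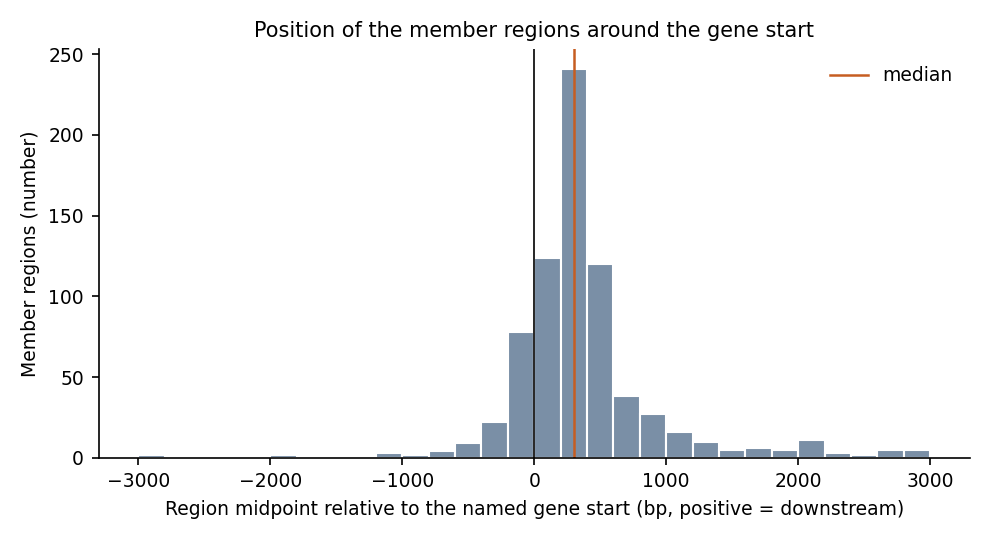
Number of member regions by the position of the region's midpoint relative to the gene start that names it, in bins of 200 bp, positive values being downstream. The tallest bins lie between 0 and 600 bp downstream, and the orange line marks the median of 305 bp.

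At the edge of the rule, the members farthest from a start were at *Rexo1* (2955 bp, -log10 q 1.93 in replicate 2 and 3.64 in replicate 3), *Pcgf2* (2933 bp, 2.03 in replicate 2 and 1.43 in replicate 4) and *Nudt19* (2735 bp, 1.48 in replicate 3 and 4.67 in replicate 4). The nearest regions with the same calls just outside lay 3019 bp from *Gm17501*, 3404 bp from *Rfx5* and 3451 bp from *Gclc*. Few members were this far out, and with a window of 1000 bp 703 regions remained under the rule.

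The promoters of the members were CpG-rich. Of 726 members named by a protein-coding gene, 574 genes had a RefSeq promoter window. Its median GC content was 64.3% and its median CpG ratio 0.857, against 56.3% and 0.576 over the 17492 protein-coding genes of the promoter table. A CpG ratio below 0.4 was found in 4.01% of the member promoters and in 39.1% of all. Regions called in every *Sirt7*-/- list had 66.3% and 0.890. Averaged over the member promoters of each library, GC content was 63.6%, 64.5% and 63.3% in replicates 2, 3 and 4, against 65.99% for the regions called in every list. The mean difference was -2.19 percentage points, and that of the CpG ratio was -0.0101. GC content is fixed by the genome, the regions called in every list are the same in each library, and the members of the 3 libraries overlap, so the libraries are no replicates of it and the difference is given as a description.

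The promoter windows were searched on both strands for 9 exact words. The GC box bound by SP and KLF factors (GGGCGG) was in 73.3% of the member promoters, 74.5% of those called in every *Sirt7*-/- list and 46.3% of all protein-coding promoters. The ETS word (CCGGAAGT) was in 9.58%, 10.7% and 5.29%, the NRF1 word (GCGCATGCG) in 6.62%, 5.51% and 2.41%, the YY1 word (AAGATGGCG) in 4.01%, 4.35% and 1.94%, and the E-box (CACGTG) in 11.7%, 14.5% and 7.90%. The TATA word (TATAAA) was in 6.27%, 6.67% and 13.3%. The CCAAT box of NFY (CCAAT) was in 36.8%, 29.3% and 39.0%, the cAMP response element (TGACGTCA) in 3.83%, 2.03% and 2.34%, and the palindrome CTCGCGAGA in 2.61%, 4.93% and 1.02%. The frequency of these words given the base composition was not tested. A match is a run of letters and no evidence of binding.

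**Figure D4:**
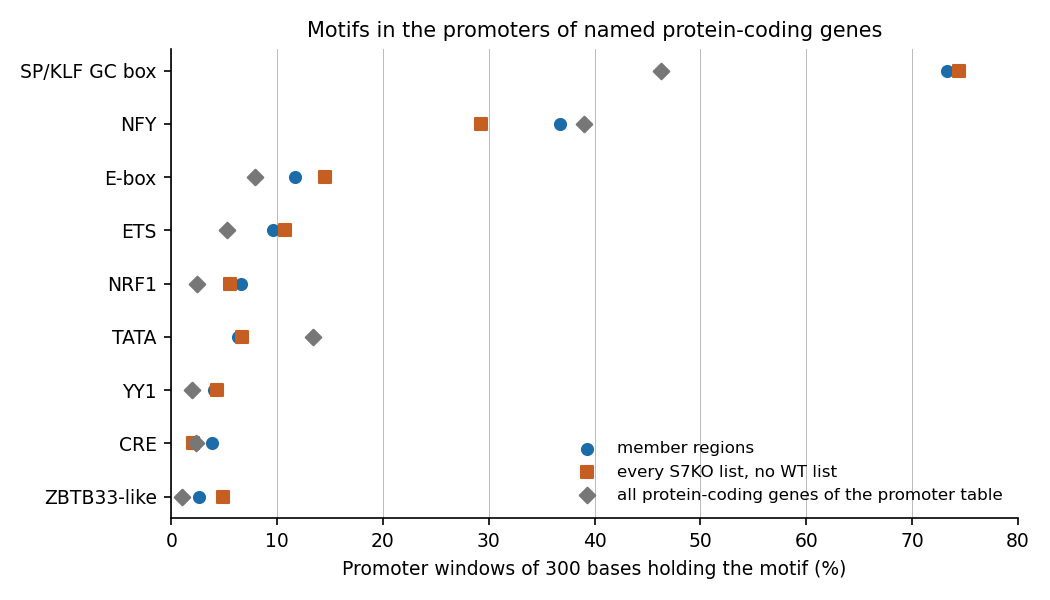
Percentage of 300-base promoter windows that hold each of the 9 words, by the factor family that names it, for member regions (circles), regions called in every *Sirt7*-/- list and no WT list (squares) and all protein-coding genes of the promoter table (diamonds). Member promoters lie above all promoters for the GC box (73.3% against 46.3%) and below them for the TATA word (6.27% against 13.3%).

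The members reached the starts of 1039 genes, 850 of them protein-coding, which was 3.96% of the 21468 protein-coding starts. The regions called in every *Sirt7*-/- list and no WT list reached 2.41%. A single gene start lay within 3000 bp of 481 members, 2 starts of 254, 3 of 15 and 4 of 2, the last being *Rpl17* with 3 small RNA genes and *Eef1b2* with *Ndufs1* and 2 small RNA genes. Divergent pairs of protein-coding genes with starts at most 1000 bp apart made up 64 of the 726 members named by a protein-coding gene (8.82%, exact 95% confidence interval 6.86 to 11.1), close to the 8.29% of the regions called in every list (5.88 to 11.3). The other 26 members were nearest to non-coding starts, among them *Snhg8* and *Snhg17*, host genes of small nucleolar RNAs, *Scarna2*, a Cajal body RNA, and *Dleu2*. These were chosen after their values were seen.

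By chromosome, promoter regions of any class were few on the sex chromosomes, and so were the members. Chromosomes 2 and 11 carried the most, 67 members each, which reached 4.91% of the protein-coding starts on both. Of their promoter regions of any class, members were 22.2% and 20.5%, within the autosomal range. The X carried 5, at 5 of its 955 protein-coding starts (0.524%), and the Y had no promoter region of any class. The 5 were *Otud5*, *Usp9x*, *Ddx3x*, *Hcfc1* and *Hprt*, and the first 4 were called in replicates 2 and 4. On the autosomes the share of protein-coding starts ran from 2.82% on chromosome 7 to 5.85% on chromosome 18.  Of the 25 promoter regions of any class on the X, the members were 20.0%, within the autosomal range of 13.8% to 24.8%.

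The genes were next read against 25 gene lists, each set beside the 3.96% of all protein-coding starts. Where shares of the regions called in every *Sirt7*-/- list and no WT list are given, they stand beside that class's own 2.41%. Splicing and hnRNP genes had the highest share of members, with 17 of 121 (14.0%), and regions called in every *Sirt7*-/- list and no WT list reached 8.26%. *Lsm8*, of the U6 Lsm ring, had a -log10 q of 6.51 in replicate 2 and 3.50 in replicate 3. *Sf3b1*, the branch site recognition factor, had 3.20 and 3.66 in the same lists. *Snrpe*, a core Sm protein, had 3.11 in replicate 2 and 3.13 in replicate 4, and *Snrpa*, protein A of the U1 particle, 3.05 and 3.32. *Lsm6* had 2.10 in replicate 2 and 3.83 in replicate 3, and *Rbm27* 1.63 and 3.66. For 7 of the 17 the region also reached another protein-coding start.

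Lists of protein synthesis and turnover genes differed from each other. Cytosolic ribosomal protein genes had 10 of 83 (12.05%), among them *Rpl23* (3.59 in replicate 2 and 3.19 in replicate 4), *Rpl15* (4.20 in replicate 3 and 1.68 in replicate 4) and *Rpl13* (1.73 in replicate 2 and 3.05 in replicate 3). Translation initiation factor genes had 6 of 56 (10.7%), with *Eif1b* at 2.76 in replicate 2 and 3.35 in replicate 4 and *Eif4h* at 1.32 in replicate 2 and 4.87 in replicate 3. The list includes *Eif4ebp1* and *Eif4ebp2*, which encode repressors of the cap-binding factor. Ubiquitin-conjugating and deubiquitinase genes had 10 of 109 (9.17%), led by *Usp48* and *Usp53* (4.11 in replicate 2 and 4.04 in replicate 4). Proteasome subunits had 4 of 51 (7.84%) and chaperones 6 of 87 (6.90%), the latter including the constitutive heat shock protein gene *Hspa8*. Aminoacyl-tRNA synthetases had 0 of 37, mitochondrial ribosomal proteins 2 of 78 (2.56%) and the nuclear-encoded respiratory chain 4 of 106 (3.77%).

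Several members lay at genes of chromatin enzymes. Regions called in every *Sirt7*-/- list and no WT list did so too. They reached 15.0% of the histone acetyltransferase list, 11.1% of the HDAC list and 15.4% of the H3K36 methylation list, each above the share of the members. Histone acetyltransferase and BRPF genes had 5 of 40 (12.5%). Besides *Epc2* these were *Supt3*, of the SAGA complex (3.08 in replicate 3 and 3.52 in replicate 4), *Ing2*, a reader of H3K4 methylation (2.89 and 2.51), *Trrap*, the scaffold of SAGA and NuA4 (2.23 in replicate 2 and 2.78 in replicate 3), and *Jade2*, of the HBO1 complex (2.43 in replicate 2 and 1.24 in replicate 4). HDAC, sirtuin and corepressor genes had 4 of 45 (8.89%), among them *Sap18* (2.49 in replicate 2 and 4.36 in replicate 3), *Mta1* (3.18 and 2.49 in the same lists) and *Hdac5* (1.92 in replicate 3 and 3.04 in replicate 4). The H3K36 methylation list had 2 of 26 (7.69%), *Glyr1*, whose product binds H3K36me3 nucleosomes (1.56 in replicate 2 and 2.99 in replicate 3), and *Nsd3*, an H3K36 methyltransferase gene (1.41 in replicate 3 and 1.69 in replicate 4).

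DNA damage response and repair genes had 10 of 96 (10.4%), against 2.08% for the regions called in every *Sirt7*-/- list and no WT list. Most of the 10 shared the region with a neighbour. For 7 of the 10 the region also reached another protein-coding start, and for 6 that other start was the nearer one: *Polh* with *Xpo5*, *Mus81* with *Cfl1*, *Polk* with *Cert1*, *Mdc1* with *Tubb5*, *Brca1* with *Nbr1* and *Xpc* with *Lsm3*. A region that reaches both starts cannot be assigned to either gene from these lists. The other 4 regions were named by the repair gene itself, though not all of them reached that protein-coding start alone. These genes were *Polb*, the polymerase of base excision repair (2.61 in replicate 3 and 2.09 in replicate 4), and *Tdp2*, which removes trapped topoisomerase II (2.64 in replicate 2 and 1.80 in replicate 4). With them came *Ercc6*, of transcription-coupled repair (2.58 in replicate 3 and 1.36 in replicate 4), and *Nbn*, of the MRN complex (1.87 in replicate 3 and 1.92 in replicate 4). The -log10 q at all 10 lay between 1.36 and 2.64.

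No member lay at the listed genes particular to the germ line, nor in the histone and receptor lists. The counts were 0 of 32 undifferentiated spermatogonia genes, 0 of 24 differentiation genes, 0 of 27 piRNA pathway genes, 0 of 41 meiotic genes, 0 of 67 replication-dependent and linker histone genes and 0 of 1297 olfactory and vomeronasal receptor genes. In the undifferentiated list, 9 genes had a region of 1 *Sirt7*-/- list alone, 1 had a region called in every *Sirt7*-/- list and no WT list, and 1 had a region called in both genotypes. *Foxo1*, a regulator of spermatogonial stem cell maintenance, had 2 such regions, 1 called in replicate 3 upstream of the start and 1 in replicate 2 downstream, which did not touch and so made no member. Patterning genes of the Hox, Pax, Fox, Sox and Tbx families had 2 of 161 (1.24%), *Foxo6* and *Sox4*. In the longer list of 40 somatic marker genes the single member was at *Inha*, the inhibin alpha gene, whose region was nearer to the start of *Obsl1* and had 1.15 in replicate 2 and 2.42 in replicate 4.

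The remaining lists ran from 3.28% to 6.52%. Pol II, Mediator and general factor genes had 6 of 92 (6.52%), led by *Gtf2h1*, a TFIIH subunit (3.36 in replicate 2 and 3.93 in replicate 4). Rab, Arf and COPII traffic genes had 8 of 145 (5.52%), with *Arf6* at 3.09 in replicate 3 and 4.71 in replicate 4 and *Rab21* at 5.12 in replicate 2 and 2.44 in replicate 3. Zinc finger genes named Zfp had 14 of 394 (3.55%), and cyclin, CDK and anaphase-promoting genes 2 of 61 (3.28%), *Cdkn1a*, which encodes the CDK inhibitor p21, and *Cdk13*. Regions called in every *Sirt7*-/- list and no WT list reached 2.17%, 4.83%, 3.05% and 6.56% of these lists, in the order given. No list was tested for enrichment. Member promoters had a higher CpG ratio than all promoters (0.857 against 0.576), and the part of CpG content in these shares was not tested.

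**Figure D5:**
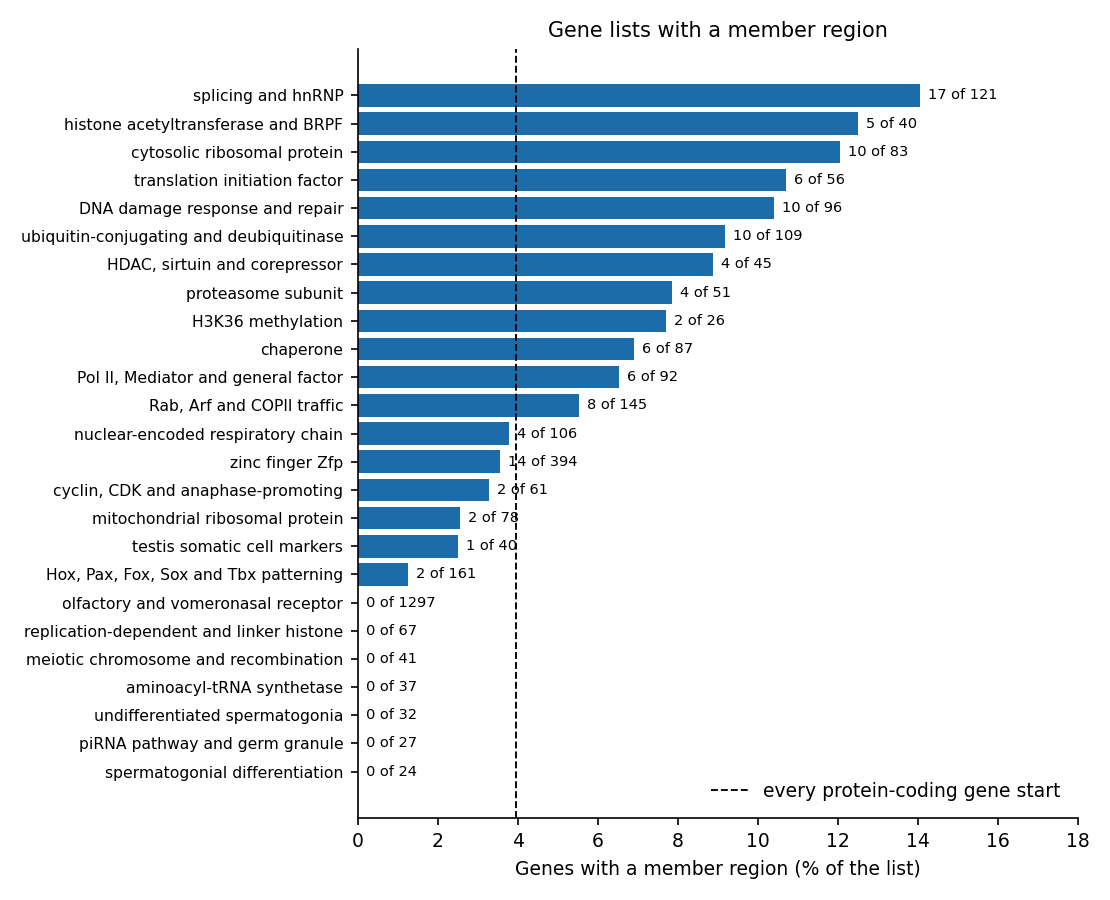
Percentage of the protein-coding genes in each of the 25 lists whose start lies within 3000 bp of a member region, with the count beside each bar. The dashed line is the 3.96% of all protein-coding starts, and splicing and hnRNP genes have the longest bar (14.0%).

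Which regions met the rule depended on the strength of the calls. Keeping peaks with a -log10 q of at least 2 left 509 regions, 267 of which overlapped a member (35.5% of the members, 52.5% of the 509). Under a common lowest -log10 p of 5.99 in all 6 lists 405 regions met it, 181 of them overlapping a member. With equally long *Sirt7*-/- lists, 507 of the 611 regions overlapped a member (67.4% of the members).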

How the data were processed

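ChIP-seq of H3K36ac was done on 50000 spermatogonia-enriched cells from each of 3 WT and 3 *Sirt7*-/- mice at Pnd 5. The 6 input libraries entered only through peak calling. Per the study's methods, reads trimmed by Trim Galore 0.6.6 were mapped with Bowtie2 2.4.4.1 on the mm10 build, and SAMtools 1.19.2 kept a mapping quality of at least 30. The authors ran MACS2 2.2.5 in broad mode (cutoff 0.1) on every ChIP library with the matching input as control and pooled no replicates. A row of the deposited lists holds coordinates, fold over input (a ratio), -log10 p, -log10 q and a score. The authors' score is the -log10 q multiplied and cut to whole numbers, and was not used. Fold, p and q were used within a list only. The study states clean reads per library before duplicates were removed. Without the number that remained for peak calling, no precision can be given for a single call, and intervals cover counting error only.

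Peaks of the 6 lists were merged where they overlapped or touched, and a list counted at a region where it had any peak. Gene starts came from the RefSeq table of GRCm38.p6, with 1 start per gene. Strand came from the RefSeq promoter table for 27025 genes and from GENCODE vM39, by symbol and chromosome, for 18249. Together 45274 of 49997 genes (90.6%) had a strand, and the others were left out. A region was named by its nearest start, protein-coding genes first. A gene had a member when any of its region lay within 3000 bp of the start. Promoter windows came from RefSeq (591 of 752 members matched). No mm10 genome was used, so peak sequences are not printed.

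A two-sided exact sign-flip test compared peak position at members and at regions called in every *Sirt7*-/- list over 3 libraries. The same test was set out for GC content but is not reported, because the libraries are not replicates of a sequence property. Intervals of shares are exact (Clopper-Pearson). The genes named were, for each pair of calling lists, the 5 members with the best mean percentile rank by -log10 q, the 3 members farthest from a start and 3 regions just outside, the 3 widest members and at most 6 genes per gene list by mean rank. Genes named beyond this rule (*Brca1*, *Xpc*, *Ercc6* and *Nbn* among the repair genes, the X-linked genes, the members near a call of another list, *Tgif1* and those said to be so in the text) were chosen after their values were seen. *Sirt7*, *Zbtb16* and *Sumo2* were reference genes, and *Sumo2* had peaks in 3 *Sirt7*-/- and 2 WT lists. The members, gene lists and tests were chosen with earlier results of these data known. Alternatives were stricter or common thresholds, a minimum width, a wider merging distance, other promoter definitions, equal list lengths, stricter overlap and each list left out. Scripts ran under SciPy 1.17.1, NumPy 2.4.6, pandas 2.3.3, matplotlib 3.10.9 and Python 3.11.15, and were tested on simulated lists.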

Additional observations from a re-analysis of the deposited data

How the results depend on the processing

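The number of member regions stayed within 1.5 times 752 under 17 of 19 alternatives. It was 423 with peaks at least 500 bp wide and 405 under the common lowest -log10 p. Leaving out 1 WT list gave 755 to 928 regions, the highest without WT replicate 2. Leaving out *Sirt7*-/- replicate 2, 3 or 4 gave 608, 794 and 664 regions. There the rule asks for a call in both remaining *Sirt7*-/- lists, which also admits regions called in every *Sirt7*-/- list. Those counts, though among the 17, therefore say nothing about how stable the number of members is. Counting alternative transcript starts, an alternative chosen after seeing the data, gave 789. The share of members without a call in *Sirt7*-/- replicate 3 fell from 47.2% to 35.2% with a -log10 q of at least 2, 32.9% with equal list lengths and 32.1% under the common lowest -log10 p. With equal list lengths only replicates 2 and 4 lose peaks. The cause under the other settings was not tested. The difference in peak position ranged from -18.8 bp with a -log10 q of at least 2 to -0.0833 bp with single starts, and from -4.88 to -2.75 bp with 1 library left out. The difference in GC content ranged from -2.55 to -1.93 percentage points with 1 library left out. The mean difference changed sign under no alternative, but the number of libraries in which members had the lower signed position went from 3 of 3 to 1 of 3 with the mean in place of the median and to 2 of 3 with single starts, protein-coding starts or a window of 1000 bp. The smallest p that 3 libraries allow is 0.25, so these p-values say nothing about stability. No paired analysis was possible because the peak lists give no WT value at the members. Signal tracks were not used here. Since the number of reads used for peak calling is not given, how many members more reads would move to another class is unknown.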
